A study of Arabidopsis thaliana with 6 samples.

Results

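The NIP aquaporins are 1 of 4 aquaporin families of Arabidopsis thaliana measured here, beside the PIP, TIP and SIP families. All 9 NIP genes, chosen by their AGI locus codes, had a row among the 28387 genes of the table. NIPs are named after nodulin 26 of soybean root nodules. They are membrane channels that carry small uncharged solutes, among them glycerol, boric acid and arsenite, and most pass water less readily than the PIP aquaporins of the plasma membrane. Several of them have their main known roles in roots, anthers or pollen, while NIP6;1 is known for boric acid distribution in the shoot.

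RNA came from leaves of plants grown for 3 weeks in a greenhouse with a photoperiod of 12 h. The mutant, atpip1;2-1, is an insertion line made with T-DNA and the wild type is N-60000, with 3 Affymetrix arrays for each line. Each array held RNA of 5 plants, 15 plants a line. The labels name the arrays of a line biological replicates, describe 1 insertion line and give no other allele or agent. The question was whether NIP transcripts differ in leaves of this mutant, in which PIP1;2 (AT2G45960) had a log2 value of 5.28 ± 0.20, against 8.87 ± 0.23 in the wild type (SD, n = 3).

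All values are log2 RMA values, in which background was corrected, arrays were normalized and probes were combined for each gene, so a difference of 1 is a 2-fold change. The arrays had medians between 3.78 and 3.84. The leaf markers were bright: 5 mesophyll markers had means from 8.88 to 10.7, and 3 markers of companion cells and vasculature from 5.65 to 8.59. Markers of tissues that a leaf lacks were dim, and 19 genes of root, pollen and tapetum, the cell layer that feeds pollen, had means from 1.73 to 3.00. The average of the 7 root markers lay between 2.31 and 2.57 on the mutant arrays and between 2.36 and 2.52 on the wild type arrays. That of the 8 pollen markers lay between 2.29 and 2.37 and between 2.23 and 2.54, and that of the 4 tapetum markers between 2.18 and 2.47 and between 2.00 and 2.42. These 3 averages overlapped between the lines. Of the 19 genes, MYB36 and CPK34 were lower in the mutant at a limma unadjusted p under 0.05, against 6.32% of all genes. None of the 19 was higher at that p, against 5.92%. The arrays did not overlap in 3 of the 19, against 18.5% of all genes. The average of the 5 mesophyll markers lay at 10.15 to 10.21 in the mutant and 9.88 to 9.93 in the wild type, without overlap. LHCB1.3 had the largest of their log2 differences, 0.68 (adjusted p = 0.142 from limma), and the others had 0.07 to 0.27. None passed an adjusted p of 0.05, where 0.342% of all genes did. In 2 of the 5, LHCB1.3 and RCA, the arrays did not overlap between the lines, against 18.5% of all genes. The average of the 3 markers of companion cells and vasculature lay at 7.21 to 7.38 in the mutant and 7.02 to 7.25 in the wild type, and overlapped. The part of these markers in the differences below was not tested. In whole leaves, fewer cells of a type and less RNA per cell cannot be told apart.

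NIP6;1 and NIP1;2 were the members with a clear signal in these leaves. They had means of 6.32 and 5.08 over the 6 arrays, both over the median of all genes, 3.80. The other 7 had means from 1.51 to 2.80. Of these 7, 6 lay in the range of the root, pollen and tapetum markers and NIP2;1 lay below it. That gene was also the 1 member in the dimmest 25% of genes, which end at 2.20, and NIP3;1 lay just over that level at 2.21. The tables used here hold no detection calls, so whether the 7 dim members were above background was not tested. Values of different genes come from different probes and are not amounts of transcript.

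**Figure D1:**
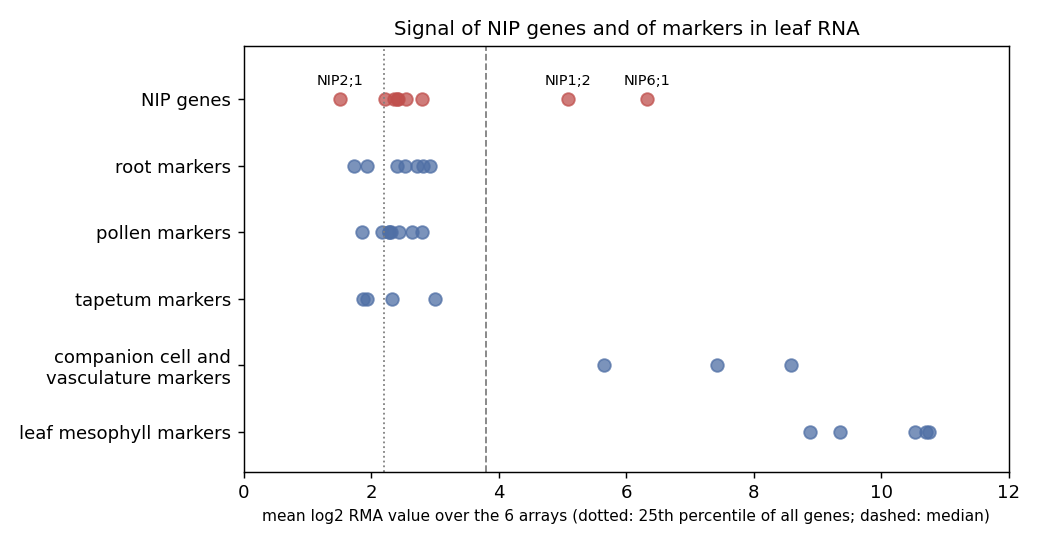
Mean log2 RMA value over the 6 arrays (horizontal axis) of each of the 9 NIP genes and of marker genes of 5 tissues, 1 point a gene, with the 25th percentile (dotted line, 2.20) and the median (dashed line, 3.80) of all genes. The 2 brightest NIP genes lie to the right of the median, and the other 7 lie among or below the root, pollen and tapetum markers.

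None of the 9 NIP genes passed an adjusted p of 0.05 in the limma fit over all genes, where 97 genes (0.342%) did. The adjusted p of the members ran from 0.310 to 0.976. At an unadjusted p under 0.05 there was 1 member, NIP5;1, which was higher in the mutant, against 5.92% of all genes in that direction and 12.2% in either. In 2 members, NIP5;1 and NIP1;2, the mutant and wild type arrays did not overlap, against 18.5% of all genes. A two-sided exact permutation test gave 0.1 for both, and p cannot go lower with 3 arrays against 3. The mean was higher in the mutant for 6 members and lower for 3. Over all 28387 genes it was higher for 13746 and lower for 14641.

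The sizes of the differences lay close to those of the whole array. The median log2 fold change of the 9 was 0.04 and that of all genes -0.01, and the median of the absolute values was 0.21 for the members and 0.18 for all genes. The median standard error was 0.23 for the members and 0.19 for all genes. For 8 members the 95% interval held 0, and for 8 members it stayed within a 2-fold change either way. The exception to the second count was NIP1;1, with an upper bound of 2.03-fold. The smallest change among the 97 genes past the threshold was 1.85-fold, and the largest in the family was 1.35-fold, so no gene with a change as small as those of the NIP genes passed.

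**Figure D2:**
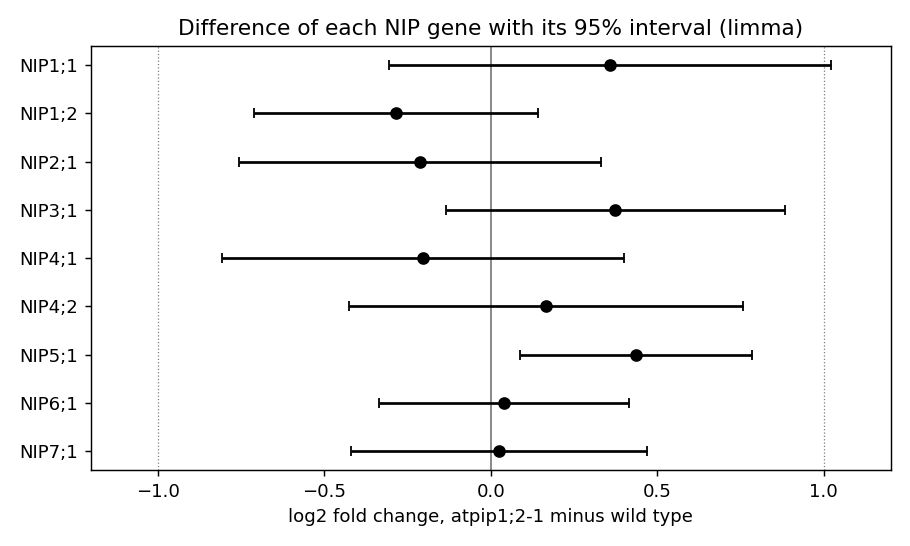
Log2 fold change of each NIP gene, mutant minus wild type (horizontal axis), with its unadjusted 95% interval from limma over 3 arrays a group. Dotted lines mark a 2-fold change, and 1 interval, that of NIP5;1, lies wholly to the right of 0 while the other 8 cross it.

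The boric acid channels of the family are NIP5;1, NIP6;1 and NIP7;1. Borate cross-links the pectin rhamnogalacturonan II in the cell wall, and NIP5;1 (AT4G10380) takes boric acid into root cells when boron is scarce. On the mutant arrays it had 2.85, 2.64 and 2.80, and on the wild type arrays 2.37, 2.22 and 2.40. All 3 mutant arrays lay above all 3 wild type arrays, with a gap of 0.24 between the nearest of them. The group means were 2.76 ± 0.11 and 2.33 ± 0.10 (SD, n = 3). The SD pooled over both groups was the smallest of any member. Its level was 1.35-fold higher in the mutant with a 95% interval from 1.06 to 1.72, a log2 difference of 0.44 (SE 0.16), at an unadjusted p of 0.0196 and an adjusted p of 0.310 from limma. It ranked 1793 of 28387 genes by p, and its level lay in the range of the root, pollen and tapetum markers.

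NIP6;1 (AT1G80760), which passes boric acid on to young shoot tissue, had the brightest signal of the family. The mutant arrays read 6.31, 6.42 and 6.29 and the wild type arrays 6.23, 6.13 and 6.53. The groups overlapped, and the wild type held both the lowest and the highest array. The log2 fold change was 0.04 (SE 0.17, adjusted p = 0.953), with a 95% interval from 0.79-fold to 1.33-fold. Differences larger than these bounds, in either direction, lay outside the interval. Relative to this gene, the level of NIP5;1 was higher in the mutant by 0.40 on the log2 scale. All 3 mutant arrays lay on one side in that measure. The exact permutation p was 0.1, the lowest that 3 arrays against 3 can give. After Benjamini-Hochberg adjustment over the 3 pairs of members compared here it was 0.3, so the test could not settle this.

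NIP7;1 (AT3G06100), a boric acid channel of the anther, read 2.96, 2.82 and 2.65 in the mutant and 2.85, 3.07 and 2.43 in the wild type. Its group means were 2.81 ± 0.16 and 2.79 ± 0.32 (SD, n = 3). The wild type arrays enclosed the mutant arrays. The log2 fold change of 0.02 (SE 0.20, adjusted p = 0.976) was the smallest in size of the 9.

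NIP1;1 and NIP1;2 are close relatives that are permeable to arsenite, and the latter is also known to take malate-bound aluminium out of root cell walls. They lie near each other on chromosome 4, with 14 protein-coding genes between them in the RefSeq table. NIP1;2 (AT4G18910) read 5.15, 4.57 and 5.09 in the mutant and 5.21, 5.29 and 5.16 in the wild type. The groups did not overlap, but the gap between the nearest arrays was 0.0076, and mutant replicate 2 lay far below the rest. Its log2 difference was -0.28 (SE 0.19, adjusted p = 0.597), with a 95% interval from 0.611-fold to 1.104-fold. Without mutant replicate 2 it was -0.099 (adjusted p = 0.881).

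NIP1;1 (AT4G19030), listed as NLM1 in the RefSeq table, had the largest SD of the family when pooled over both groups. Its arrays read 2.50, 2.21 and 2.90 in the mutant and 2.634, 1.501 and 2.395 in the wild type, where replicate 2 was the low one. The groups overlapped. The mean was higher in the mutant by 0.36 (SE 0.30, adjusted p = 0.677), which rested on that array and was 0.021 without wild type replicate 2. The other gene of the pair was lower in the mean in the mutant. The difference between both changes was 0.64 on the log2 scale (exact permutation p = 0.2, adjusted p = 0.3 over 3 pairs). This p cannot go below 0.1 with 3 arrays against 3, so the test could not show whether these relatives changed unequally.

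NIP3;1 (AT1G31885) is another arsenite channel, known for arsenite uptake and its movement from root to shoot. It read 2.00, 2.69 and 2.50 in the mutant and 1.83, 2.37 and 1.87 in the wild type. Mutant replicates 2 and 3 lay above every wild type array, while mutant replicate 1 lay among them. Its log2 difference was 0.37 (SE 0.23, adjusted p = 0.551), with a 95% interval from 0.91-fold to 1.84-fold.

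NIP2;1 (AT2G34390) is known as a lactic acid channel of roots that is induced when oxygen is short. It had the dimmest signal of the family, 1.587, 1.298 and 1.314 in the mutant and 1.127, 1.597 and 2.112 in the wild type. The wild type arrays enclosed the mutant arrays. The log2 fold change was -0.21 (SE 0.24, adjusted p = 0.783), with a 95% interval from 0.592-fold to 1.258-fold.

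NIP4;1 and NIP4;2 are channels of pollen and the pollen tube. They stand next to each other on chromosome 5 with 0 protein-coding genes between them in the RefSeq table, and are close copies, so whether their probes read both transcripts was not tested. The first of them (AT5G37810) read 2.81, 2.38 and 1.70 in the mutant and 2.62, 2.65 and 2.23 in the wild type, and differed by -0.20 (SE 0.27, adjusted p = 0.817). The second (AT5G37820) read 2.11, 2.46 and 2.95 in the mutant and 1.99, 2.25 and 2.79 in the wild type, and differed by 0.17 (SE 0.26, adjusted p = 0.854). Both genes overlapped between the lines. In both lines replicate 3 was the lowest array for the first gene and the highest for the second. The difference between both changes was -0.37 (exact permutation p = 0.7, adjusted p = 0.7 over 3 pairs).

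**Figure D3:**
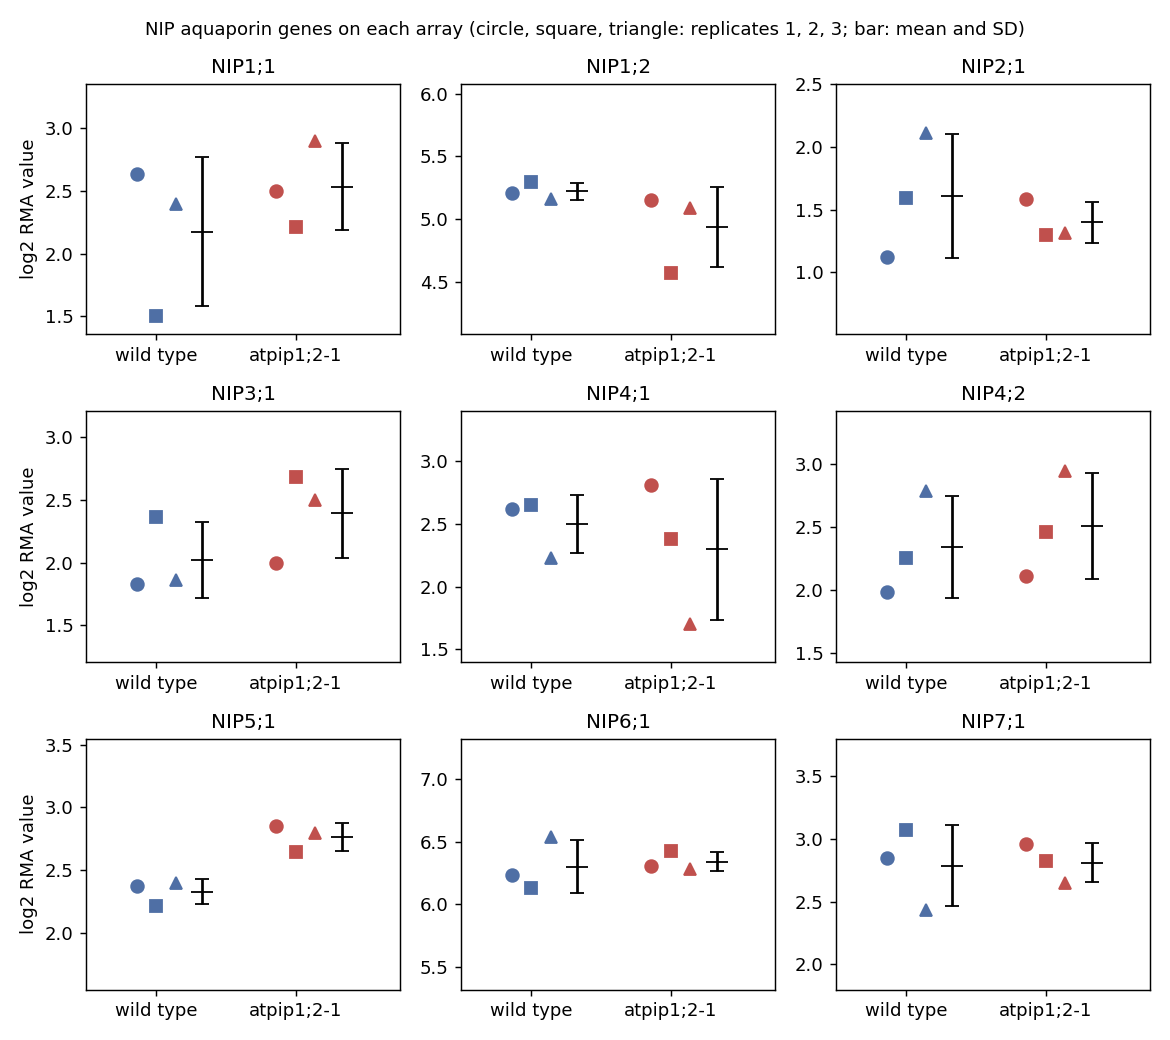
Log2 RMA value (vertical axis) of each NIP gene on the 3 wild type arrays (blue) and the 3 mutant arrays (red), with the mean and SD of each group as a black bar. Every panel spans the same log2 range. The nearest arrays of the 2 lines lie 0.24 apart in NIP5;1 and 0.0076 apart in NIP1;2, and the lines overlap in the other 7 genes.

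Genes that handle the solutes of NIP channels were looked at beside the family, in 6 lists with 49 measured genes. None passed the adjusted threshold in limma, where 0.342% of all genes did. At an unadjusted p under 0.05 there was 1 higher in the mutant, against 5.92% of all genes, and there were 2 lower, against 6.32%. Of the 7 BOR genes, which export borate from cells, none passed at either threshold, and the median log2 fold change was -0.04. BOR1, the xylem loading exporter, had -0.30 (SE 0.22, adjusted p = 0.625), and BOR7 had -0.21 (SE 0.16, adjusted p = 0.644) here and 0.084 (SE 0.13) in the deposited table per probe set, where its direction turned. Of 8 genes for rhamnogalacturonan II synthesis none passed either way (median -0.12). RGXT3, a xylosyltransferase gene, had -0.45 (SE 0.25) and CKS, for the enzyme that activates the sugar Kdo, -0.29 (SE 0.18), with adjusted p of 0.506 and 0.577. In the table per probe set CKS had -0.40 (SE 0.16), at an unadjusted p of 0.0365 and an adjusted p of 0.386 from limma.

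Lists for the solutes of the arsenite, aluminium, lactate and glycerol channels held no member past the adjusted threshold either, which 0.342% of all genes passed. Of 9 arsenic genes, which cover arsenate uptake and reduction, glutathione and phytochelatin synthesis and vacuolar storage, none had an unadjusted p under 0.05 (median 0.07). The phytochelatin synthase genes PCS1 and PCS2 had -0.37 (SE 0.17, adjusted p = 0.410) and -0.35 (SE 0.18, adjusted p = 0.482). Of 6 aluminium tolerance genes 1 had an unadjusted p under 0.05 (median -0.02), where 12.2% of all genes did. That gene, ALS1, for a half-size ABC transporter of the vacuole, had -0.41 (SE 0.15, adjusted p = 0.332), while STAR1 had -0.47 (SE 0.25, adjusted p = 0.489). Of 13 hypoxia and lactate genes 2 did (median -0.08), a share near that of all genes. They were GOX3, for an oxidase that uses lactate, with 0.43 (SE 0.16, adjusted p = 0.331), and HRA1, a regulator of the hypoxia response, with -0.37 (SE 0.16, adjusted p = 0.395). In the table per probe set HRA1 had -0.15 (SE 0.17), at an unadjusted p of 0.406 from limma. Of 6 glycerol metabolism genes none had an unadjusted p under 0.05 (median 0.07), with 0.17 (SE 0.17, adjusted p = 0.753) for the glycerol kinase gene GLI1 and -0.19 (SE 0.17, adjusted p = 0.697) for GPDHC2.

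Of the other aquaporin families, 1 gene passed the adjusted threshold, PIP1;2 itself, where 0.342% of all genes did. The median log2 fold change was 0.04 over the 13 PIP genes, -0.04 over 10 TIP genes and 0.09 over 3 SIP genes, set against 0.04 over the 9 NIP genes. At an unadjusted p under 0.05 there were 2 PIP genes, of which 1 is PIP1;2, 3 TIP and 0 SIP genes, where 12.2% of all genes lay under it. Whether the families differ in this was not tested.

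The genes whose profile over the 6 arrays was nearest to that of NIP5;1 were RALFL15 (AT2G22055), AT5G04800 and AT1G78020. After each gene's own mean was subtracted, they differed from it by a root mean square of 0.033, 0.056 and 0.057 on the log2 scale, against a median of 0.33 over the 21287 genes compared, which left out the dimmest 25%. Their own log2 fold changes were 0.40, 0.38 and 0.39, and their adjusted p from limma lay between 0.345 and 0.391. These genes were picked for this likeness over the same 6 arrays, so their small distances and similar fold changes follow from the choice. The likeness is a description over 6 arrays.

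Of the alternatives that gave the family a value, 9 could move a difference, and 6 of these left out 1 array. The difference of NIP5;1 kept its direction under all 9, between 0.38 and 0.50, and its adjusted p over all 12 alternatives fitted lay between 0.225 and 0.571. NIP3;1 stayed between 0.23 and 0.57, and both NIP1 genes also kept their direction. The other 5 members changed sign under 1 to 3 of these 9.

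**Figure D4:**
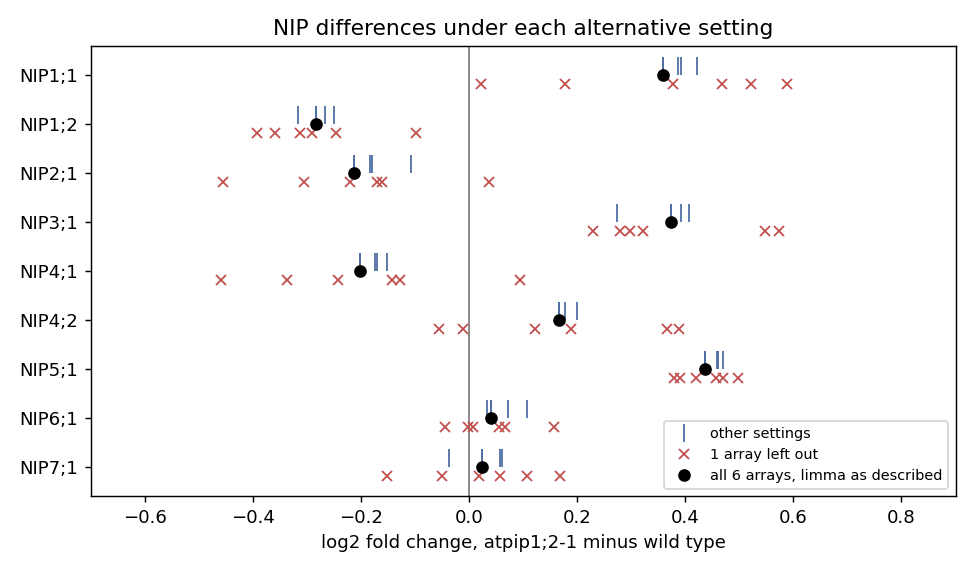
Log2 fold change of each NIP gene (horizontal axis, mutant minus wild type) from all 6 arrays (black), with 1 array left out (red crosses) and under the other settings (blue strokes). The values of NIP5;1 stay between 0.38 and 0.50, and 5 genes have values on both sides of 0.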

How the data were processed

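Leaf RNA of mutant and wild type plants was measured on 6 arrays. The deposited table per AGI code holds log2 values, for which the submitters' processing notes name RMA and Partek without versions or roles. Neither the probe grouping nor a genome build is given in the sources used here. The deposited table per probe set was taken as log2 from its values. The platform annotation named 16411 genes in it and none of the 9 NIP genes, so it gave no value for the family.

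Genes were tested in limma 3.58.1 under R 4.3.3 by lmFit followed by eBayes, two-sided, with 3 against 3 arrays and no covariate. P-values were adjusted by Benjamini-Hochberg over the 28387 genes, at a threshold of 0.05. Intervals are limma's, at 95% and unadjusted. Exact permutation tests ran over the 20 splits of the arrays. The fit was tested on simulated data. The number of arrays limits the precision.

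The members, gene lists and rules were chosen with earlier results of these data known. Named beside the 9 members and PIP1;2 were the 2 genes of smallest unadjusted p in each of the 6 lists and the 3 genes nearest in profile to the NIP gene of smallest p. Symbols are those of the lists or of a RefSeq table of assembly TAIR10.1. Sequences were not used here. Figures were drawn with matplotlib 3.10.9.

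Alternatives were the probe-set table, leaving out the dimmest 25% of genes, a variance trend with robust fitting, array weights, repeated quantile normalization, equal array medians, a replicate block, omission of each array and a threshold of 0.10.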

Additional observations from a re-analysis of the deposited data

How the results depend on the processing

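No NIP gene passed the adjusted threshold under any alternative that gave the family a value, a threshold of 0.10 and the replicate block included, and the lowest adjusted p of any member was 0.225, for NIP5;1 with array weights. Leaving out 1 array gave 0 NIP genes each time. The dim-gene filter, the variance trend with robust fitting and the replicate block leave a log2 fold change as it is. Under the other 9 alternatives 72 of 81 values of members kept their direction and 9 changed sign. With array weights NIP7;1 turned to -0.038, and the cause was not tested. The other 8 changes of sign came from leaving out 1 array, which leaves 2 in a group. Without 1 array NIP7;1 ranged from -0.151 to 0.168, NIP6;1 from -0.044 to 0.157, NIP4;2 from -0.055 to 0.389, NIP4;1 from -0.460 to 0.095 and NIP2;1 from -0.455 to 0.038. The count over all 28387 genes was 97. In the probe-set table it was 31, out of only the 16411 genes named there. Over the 28387 genes it moved to 375 with trend and robust fitting and to 191 at a threshold of 0.10. Without 1 array it was 14 to 48 (14 without wild type replicate 2). With the replicate block it was 45, while the block gave NIP5;1 an adjusted p of 0.339 and NIP3;1 of 0.437. Whether the numbers pair the arrays was not settled. Deviations of same-numbered arrays correlated at only 0.0085, 0.050 and 0.075 over genes, though each mutant array correlated best with its own number. The absence of background values limits what can be said of the 7 dim members.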
